A study of Mus musculus with 14 samples.

Results

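The 38 mouse genes described here encode the transporters and enzymes of glycolysis, the enzymes of the pentose phosphate pathway, and genes of the response to low oxygen. The rule that lists them names genes of these pathways and uses no measured value, but earlier results of these data were known when it was drawn up. They comprise 17 genes from glucose uptake to pyruvate kinase, 4 of lactate handling, 5 that direct flux at branch points, 4 of the hypoxia response and 8 of the pentose phosphate pathway. All 38 were found among the 50686 genes of the count tables, and 37 passed the filter on low counts, the exception being Fbp1.

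RNA was sequenced from 14 cultures of HPC-LSK cells, cultured mouse blood progenitors of the C57BL/6N strain that resemble the LSK compartment, which is defined by Sca-1 and Kit and by the absence of lineage markers. Their Cdk6 gene was either intact (WT) or knocked out (KO). Cdk6 encodes a cyclin D-dependent kinase of the cell cycle. Cells of both genotypes were studied untransformed and after introduction of BCR-ABL p210, the fusion tyrosine kinase of chronic myeloid leukaemia. There were 4 libraries of WT untransformed and 3 of KO untransformed cells, and 3 of WT and 4 of KO cells with p210. The medium of untransformed cells held IL-6 at 12.5 ng/ml together with SCF, the ligand of Kit, at 2%, and that of p210 cells held neither cytokine, so that the oncogene and the medium changed together and cannot be told apart. The labels do not say whether replicates were separate derivations or cultures of 1 line, and every p-value therefore rests on a spread between libraries that may be technical. Descriptions carry 1 of 2 codes of unstated meaning: replicates 1 and 2 share the first code in each group, and replicates 3 and 4 share the second. CDK6 is known to act on the proteins of Pfkp and Pkm, and the comparisons below ask what the transcripts of these and of the related enzymes did.

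Glycolysis splits glucose into pyruvate, which cells either send to the mitochondria or reduce to lactate. The pentose phosphate pathway branches off at glucose 6-phosphate. Its oxidative arm makes NADPH for lipid synthesis and for defence against oxidants, and its non-oxidative arm makes ribose for nucleotides and returns carbon to glycolysis. Many glycolytic genes are targets of HIF1, the factor that accumulates when oxygen is low, and stem cells of the marrow are known for a high reliance on glycolysis.

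Total counts per library ranged from 20270348 to 50303271. Levels are CPM, read counts scaled to a common library size after TMM correction, in the order of the replicate numbers, unless given as deposited TPM, which is per length and allows levels of different genes to be compared. Gene positions are those of the files (GRCm38). A gene was called where the adjusted p of edgeR's quasi-likelihood test was under 0.05. Cdk6 stood at 970.2 to 1305 CPM in WT untransformed libraries and at 236 to 271 CPM in KO untransformed libraries. In p210 lines it stood at 576 to 606 CPM in WT and at 326, 578, 245 and 163 CPM in KO, so that the library labelled KO p210 replicate 2 lay within the WT range and went against its label. The progenitor markers Cd34 (368 to 990.3 CPM in KO p210) and Ptprc were present in every library, while Kit stood at 359.9 to 471 CPM in WT untransformed and 35.5 to 59.1 CPM in WT p210 libraries. Of 9 progenitor genes listed, p210 lines had 1 called higher and 2 lower in WT, and 1 higher and 3 lower in KO. Over all genes tested 39.5% and 37.2% were called. Counts of Ly6a (Sca-1) were 590, 674 and 2147 in KO untransformed and 557, 305, 19 and 53 in KO p210 libraries. Those of Flt3 were 154, 194 and 396 and then 8, 5, 27 and 8, and those of Meis1 2011, 1618 and 3925 and then 399, 336, 564 and 476. Of 7 lymphoid genes listed, 1 passed the filter on low counts, Il7r, at 28 to 1100 counts, and the T cell gene Cd3e was at 0 in all 14 libraries. The summed neutrophil and monocyte genes stood at 545 CPM or more in every library, though Fcnb held 0 counts in KO p210 replicate 1.

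The sequences before the start sites of 7 genes on which the results turn are shown here, because 3 of them (G6pdx, Pgd and Taldo1, of the pentose phosphate pathway) were higher together, and the others are pairs of isozymes, of which Pdk1 and Pdk3 moved in opposite directions with p210 while Ldha and Ldhb both fell in WT lines and stood at very different levels. They are RefSeq sequences of GRCm38.p6, 5′ to 3′ on the strand of the gene, and capitals mark the cores of the hypoxia response element, ACGTG and GCGTG, on either strand, together with TGACNNNGC, the core of the antioxidant response element, which was added after the values of these genes had been seen. ACGTG overlaps the E-box CACGTG. For genes whose other annotated exons reach into the window only 30 bases around a match are printed (chrX:74428914-74428943, minus strand; chr4:149166729-149166758, minus strand; chrX:93832194-93832223, minus strand).
G6pdx: gggtcaGCTCAGTCAaagcaCACGCcctct
Pgd: cagagacccaataGCGTGgggcatcggccc
Pdk3: acatccCACGCgcgccgcgtACGTGcggcg
For the others the 250 bases before the start are printed. They are Taldo1 at chr7:141391910-141392159, plus strand, Pdk1 at chr2:71872974-71873223, plus strand, Ldha at chr7:46845554-46845803, plus strand and Ldhb at chr6:142507958-142508207, minus strand.
Taldo1: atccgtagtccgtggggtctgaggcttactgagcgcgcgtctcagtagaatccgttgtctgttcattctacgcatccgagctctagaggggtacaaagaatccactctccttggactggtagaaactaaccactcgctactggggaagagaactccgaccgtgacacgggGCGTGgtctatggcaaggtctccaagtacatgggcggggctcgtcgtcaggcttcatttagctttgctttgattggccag
Pdk1: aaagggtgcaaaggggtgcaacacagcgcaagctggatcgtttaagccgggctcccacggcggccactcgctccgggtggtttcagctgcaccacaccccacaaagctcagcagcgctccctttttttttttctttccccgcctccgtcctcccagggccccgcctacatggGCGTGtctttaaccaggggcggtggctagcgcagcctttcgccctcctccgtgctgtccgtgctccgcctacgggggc
Ldha: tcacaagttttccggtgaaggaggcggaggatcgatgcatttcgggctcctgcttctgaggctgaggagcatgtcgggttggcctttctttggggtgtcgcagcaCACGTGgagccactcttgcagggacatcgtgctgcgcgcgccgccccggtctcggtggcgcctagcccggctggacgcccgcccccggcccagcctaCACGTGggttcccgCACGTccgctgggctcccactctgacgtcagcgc
Ldhb: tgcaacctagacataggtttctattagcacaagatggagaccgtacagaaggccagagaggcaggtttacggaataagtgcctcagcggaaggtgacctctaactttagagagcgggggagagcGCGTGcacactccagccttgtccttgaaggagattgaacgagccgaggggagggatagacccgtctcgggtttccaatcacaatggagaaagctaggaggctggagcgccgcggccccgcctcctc

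A start site was listed for 37 of the 38 members, not for Slc2a3, and a gene with several start sites counted as holding a motif if any of its windows did. Within 250 bases before to 50 bases after the start, 21 of these 37 members (56.8%) held ACGTG on either strand, against 21.8% of 27025 genes, and 24 (64.9%) held GCGTG, against 35.2%. CACGTG was found in 6 members (16.2%, against 8.09% of genes) and TGACNNNGC in 6 (16.2%, against 13.99%), G6pdx and Pgd among them. The match of Pgd lay just after its other start site, and the 250 bases before the start shown above held none. In the 250 bases printed, Ldha held 5 matches to ACGTG, counted on both strands, 4 of them at its 2 copies of the palindrome CACGTG, whereas Ldhb held 1 match to GCGTG and none to ACGTG. These matches are descriptions of letters, base composition was not matched between members and other genes, and both genes that rose and genes that fell below held them.

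Of the 8 pentose phosphate genes, 4 (G6pdx, Pgd, Rpe and Taldo1) were higher in KO than in WT untransformed lines, 4 (G6pdx, Pgd, Rpia and Taldo1) were higher with p210 in WT lines and 2 (Pgd and Taldo1) with p210 in KO lines, where 8.73%, 21.9% and 19.2% of all genes tested were called higher. Of the pyruvate dehydrogenase kinases, Pdk1 fell and Pdk3 rose with p210 in both genotypes. Hk1, Pfkl, Pfkm and Ldhb were lower and Slc2a3 and Gapdh higher with p210 in both genotypes. Pfkp and Pkm passed the test in none of the comparisons. That does not show them unchanged. The test recovered only 3.06 to 8.16% of log2 changes of 0.5 set in simulated counts. Fewer genes were changed there than were called in the data, so recovery in the data may differ. Of the 37 members tested, 20 (54.1%) were called in at least 1 comparison, as were 56.6% of all genes tested.

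**Figure D1:**
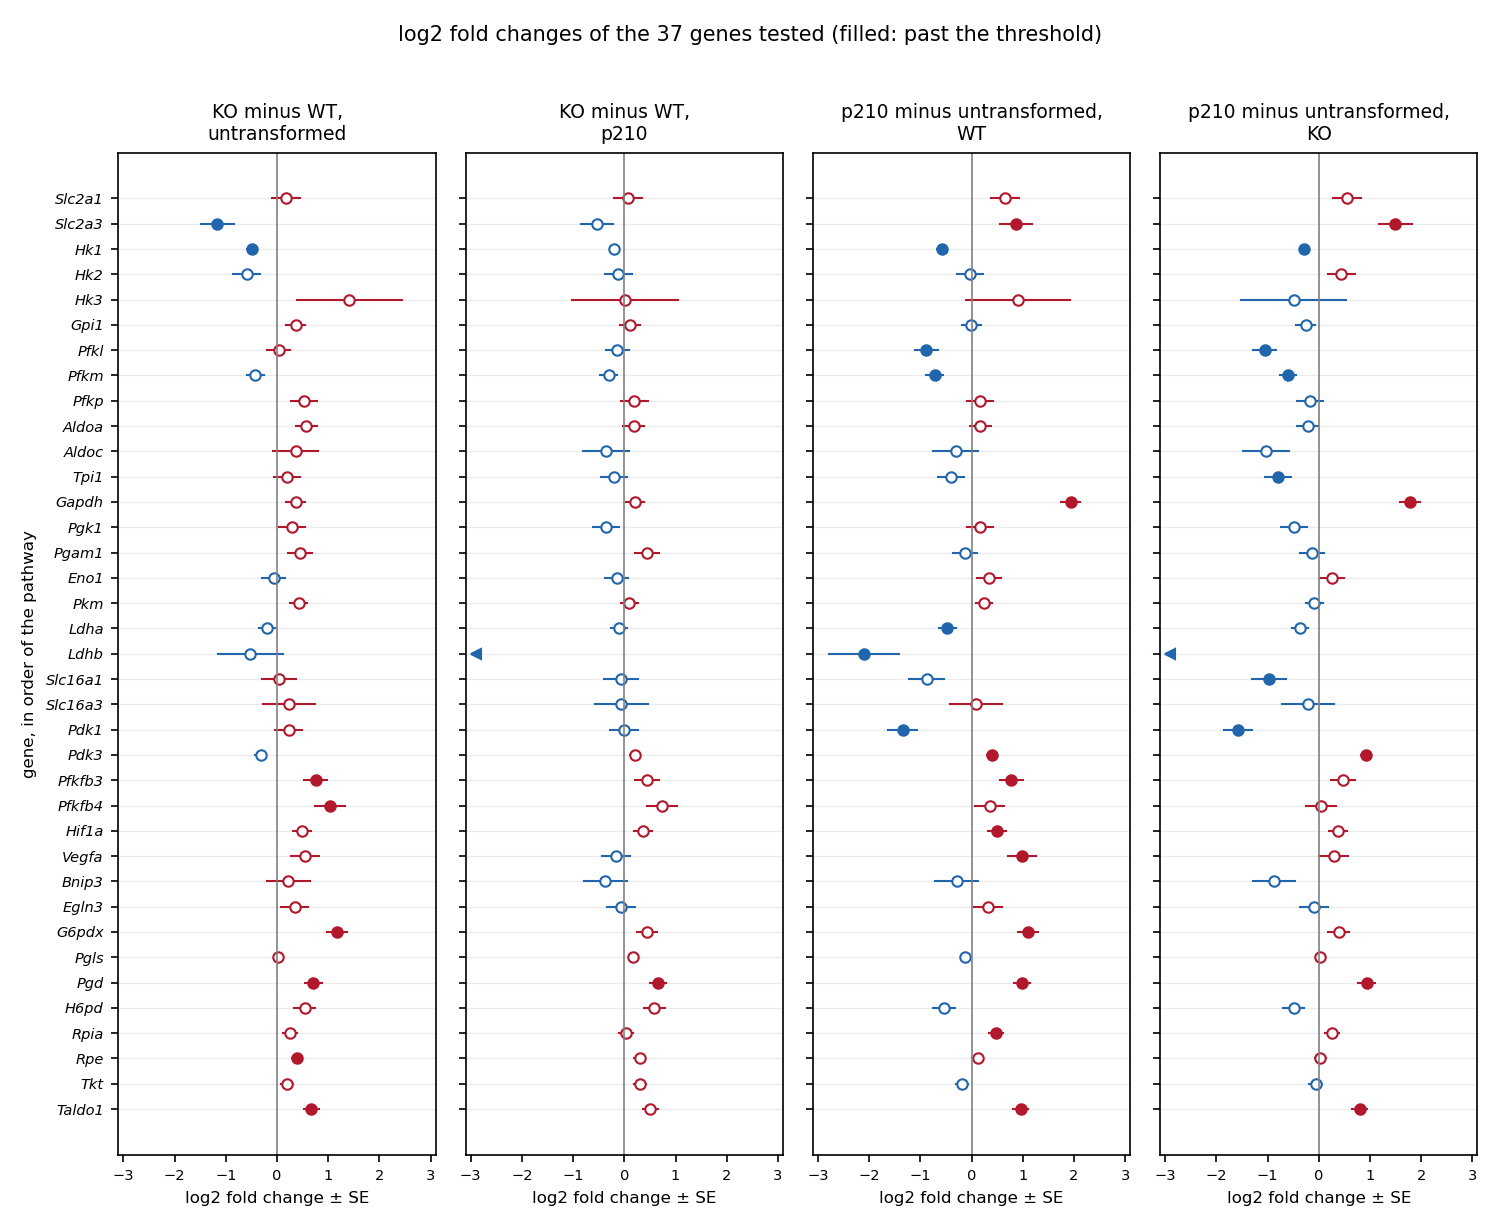
Log2 fold changes (points) with their SE (lines) of the 37 members tested, in order of the pathway, for the 4 comparisons. Filled points passed the threshold of adjusted p under 0.05, red is higher and blue lower, and the arrowheads mark Ldhb beyond the axis at -5.58 and -7.16.

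The first comparison asked how Cdk6-deficient progenitors differ from WT before transformation. In KO untransformed lines 8 of 37 members passed, 6 higher and 2 lower, where 15.2% of all 14512 genes tested were called (8.73% higher and 6.50% lower). The genes that rose were G6pdx, Pgd, Rpe and Taldo1 of the pentose phosphate pathway, and Pfkfb3 and Pfkfb4, which make and break fructose 2,6-bisphosphate, the activator of phosphofructokinase. The glucose transporter gene Slc2a3 and the hexokinase gene Hk1 fell. The median log2 fold change of the members was 0.29, against -0.02 over all genes tested, and 29 of 37 were above 0. For 12 members the CPM of both groups did not overlap, as for 39.7% of all genes tested. Without KO untransformed replicate 2 only 2 members were called, G6pdx and Hk1, without KO untransformed replicate 1 or WT untransformed replicate 4 3 members each, and without WT untransformed replicate 2 or 3 5 members each. With library size scaling, which lowered the median of all genes by 0.10, 4 members were called higher and 3 lower, and the share of calls that were higher over all genes was 35.6%, against 57.3% with TMM.

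In p210 lines 2 of 37 members differed between KO and WT, Pgd, which was higher, and Ldhb, which was lower, where 4.44% of all genes tested were called (0.882% higher and 3.56% lower). The median log2 fold change was 0.03, and the groups did not overlap for 8 members, as for 13.3% of all genes tested. Without the library labelled KO p210 replicate 2 only Ldhb was called, where 2.10% of all genes tested were called. Pgd was the 1 member called in both comparisons of genotype. These share no library, but they share 1 estimate of the spread and may share cell lines, so both calls are not independent. Of all genes tested 217 were called in both in 1 direction, 9.81% of those called before and 33.6% of those called after transformation.

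With p210 16 of 37 members changed in WT lines, 10 higher and 6 lower, where 39.5% of all genes tested were called (21.9% higher and 17.6% lower). In KO lines 12 changed, 5 higher and 7 lower, where 37.2% were called (19.2% higher and 18.0% lower). The groups did not overlap for 13 members in WT and 17 in KO, as for 45.0% and 46.1% of all genes tested, so that the members changed about as often as other genes. Called in both genotypes in 1 direction were 10 members, 62.5% of those called in WT and 83.3% of those called in KO. Over all genes tested 3613 were, 63.1% and 67.0%. The members that rose in both were Slc2a3, Gapdh, Pdk3, Pgd and Taldo1, and those that fell in both were Hk1, Pfkl, Pfkm, Ldhb and Pdk1. Samples that share a code and a letter in their descriptions were taken as 1 line, which the labels do not state. Of such lines 6 were present in both states, and the direction of each of these 10 was the same in 6 of 6. The 10 were picked by calls from the same libraries, so this agreement was nearly fixed in advance and is no separate support. The split of all calls depended on the scaling: with library size scaling 42.0% of calls in WT and 37.7% in KO were higher, against 55.4% and 51.7% with TMM, and of the members 7 were called higher and 9 lower in WT and 5 higher and 9 lower in KO.

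The interaction of genotype and p210 called 0 members in edgeR, where 0.0345% of all genes tested were called. At an unadjusted p under 0.05 there were 4 of 37, Hk1, Ldhb, Pdk3 and G6pdx, beside 2041 of all 14512 genes tested. DESeq2 called 2 members and 2.85% of all genes tested, and limma-voom 0 members and 0.0276%. Without KO p210 replicate 4 edgeR called 1 member and 0.296% of all genes tested. So no difference of the KO effect between both states is given for any member below.

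G6pdx (chrX:74409483-74429194), which encodes glucose 6-phosphate dehydrogenase, the entry and rate-limiting step of the oxidative arm, was lowest in WT untransformed lines. Its level was 262, 211, 145 and 199 CPM in WT untransformed libraries and 405, 485 and 483 CPM in KO untransformed libraries. No WT value reached a KO value, a log2 fold difference of 1.16 ± 0.20 (SE, adjusted p = 0.00666). In WT p210 libraries G6pdx stood at 372, 513 and 438 CPM, again above every WT untransformed library, with a log2 fold change of 1.11 ± 0.20 (SE, adjusted p = 0.00102). In KO p210 libraries it stood at 623, 543, 474 and 753 CPM, overlapping both KO untransformed and WT p210 libraries, and neither difference passed (0.39 ± 0.20 and 0.44 ± 0.20). The difference between KO and WT untransformed libraries was 0.90 among libraries of the first code (adjusted p = 0.063) and 1.46 among those of the second (adjusted p = 0.25). Within a code the groups held 2 libraries at most and the second code only 1 in the KO untransformed and WT p210 groups.

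Pgd (chr4:149149991-149166771), whose product 6-phosphogluconate dehydrogenase makes the second NADPH of the arm, was called in all 4 comparisons and was higher in each. The values were 266, 203, 173 and 198 CPM in WT untransformed, 336, 381 and 312 CPM in KO untransformed, 359, 377 and 516 CPM in WT p210 and 643, 570.2, 671 and 748 CPM in KO p210 libraries. Each KO group lay wholly above the WT group of its state, and each p210 group above the untransformed group of its genotype. The log2 fold changes of KO against WT were 0.71 ± 0.16 (SE, adjusted p = 0.0154) before and 0.66 ± 0.16 (SE, adjusted p = 0.0416) after transformation, and those of p210 were 0.99 ± 0.16 (SE, adjusted p = 0.000564) in WT and 0.94 ± 0.16 (SE, adjusted p = 0.00113) in KO. The KO difference in p210 lines was narrow and was not called without WT untransformed replicates 2 or 4, KO untransformed replicates 1, 2 or 3, WT p210 replicates 1 or 2 or KO p210 replicates 1, 2, 3 or 4 (log2 fold changes 0.55 to 0.72, adjusted p = 0.0535 to 0.162). The KO difference in untransformed lines was not called without WT untransformed replicate 4 or KO untransformed replicates 1 or 2 (log2 fold changes 0.60 to 0.70, adjusted p = 0.051 to 0.0933). Within codes the KO difference before transformation was 0.61 and 0.72 (adjusted p = 0.0742 and 0.236), and after it 0.72 and 0.45 (adjusted p = 0.0538 and 0.335).

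Taldo1 (chr7:141392199-141402968), the transaldolase of the non-oxidative arm, followed the same order of groups. It stood at 313, 245, 247 and 252 CPM in WT untransformed and 403, 446 and 412 CPM in KO untransformed libraries, which did not overlap, a log2 fold change of 0.67 ± 0.15 (SE, adjusted p = 0.0139). In p210 libraries it stood at 409.8, 507 and 627 CPM in WT and 802, 609.9, 697 and 821 CPM in KO. Both p210 groups lay above the untransformed libraries of their genotype, with log2 fold changes of 0.96 ± 0.15 (SE, adjusted p = 0.000394) and 0.80 ± 0.15 (SE, adjusted p = 0.00165), whereas KO and WT p210 libraries overlapped (log2 fold change 0.51 ± 0.15 SE, adjusted p = 0.0759). The difference between KO and WT untransformed lines was not called without KO untransformed replicate 2 (log2 fold change 0.60, adjusted p = 0.0821). Within codes that difference was 0.60 and 0.69, and the p210 difference in WT was 0.71 and 1.30 (adjusted p = 0.0417 and 0.0311).

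The other pentose phosphate genes differed less. Rpe, the ribulose 5-phosphate epimerase, stood at 63.5, 57.1, 44.5 and 54.0 CPM in WT and 66.3, 78.0 and 70.8 CPM in KO untransformed libraries, a difference of 0.39 ± 0.10 (SE, adjusted p = 0.029) that was called in 14 of 26 alternative analyses. Rpe was not called without WT untransformed replicates 2, 3 or 4 or KO untransformed replicates 1, 2 or 3 (log2 fold changes 0.28 to 0.41, adjusted p = 0.0503 to 0.156). Rpia, the isomerase that forms ribose 5-phosphate, rose with p210 in WT lines, from between 87.4 and 133 to between 129.7 and 173 CPM, by 0.48 ± 0.14 (SE, adjusted p = 0.0154). Rpia was not called without WT p210 replicate 2 (log2 fold change 0.40, adjusted p = 0.0678). Tkt (transketolase), Pgls (the lactonase between the dehydrogenases) and H6pd (the dehydrogenase of the endoplasmic reticulum) were called in no comparison. H6pd nevertheless stood at 31.1 to 57.5 CPM in WT and 62.1 to 69.0 CPM in KO untransformed libraries with no overlap (log2 fold change 0.54 ± 0.20 SE, adjusted p = 0.0916). The median log2 fold change of the 8 pentose phosphate genes between KO and WT was 0.47 before and 0.38 after transformation, against -0.02 and -0.0014 over all genes tested.

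Summed over the genes of an arm and expressed as deposited TPM, the oxidative arm held 486 ± 84.8 TPM in WT untransformed (SD, n = 4), 781 ± 54.2 TPM in KO untransformed (n = 3), 784 ± 53.1 TPM in WT p210 (n = 3) and 989 ± 102 TPM in KO p210 libraries (n = 4). The non-oxidative arm held 1166 ± 123 TPM, 1366 ± 24.3 TPM, 1402 ± 69.0 TPM and 1679.7 ± 49.7 TPM in the same order. In both arms every KO p210 library exceeded every library of the other groups, and every WT untransformed library lay below all others. KO untransformed and WT p210 libraries overlapped in both arms.

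**Figure D2:**
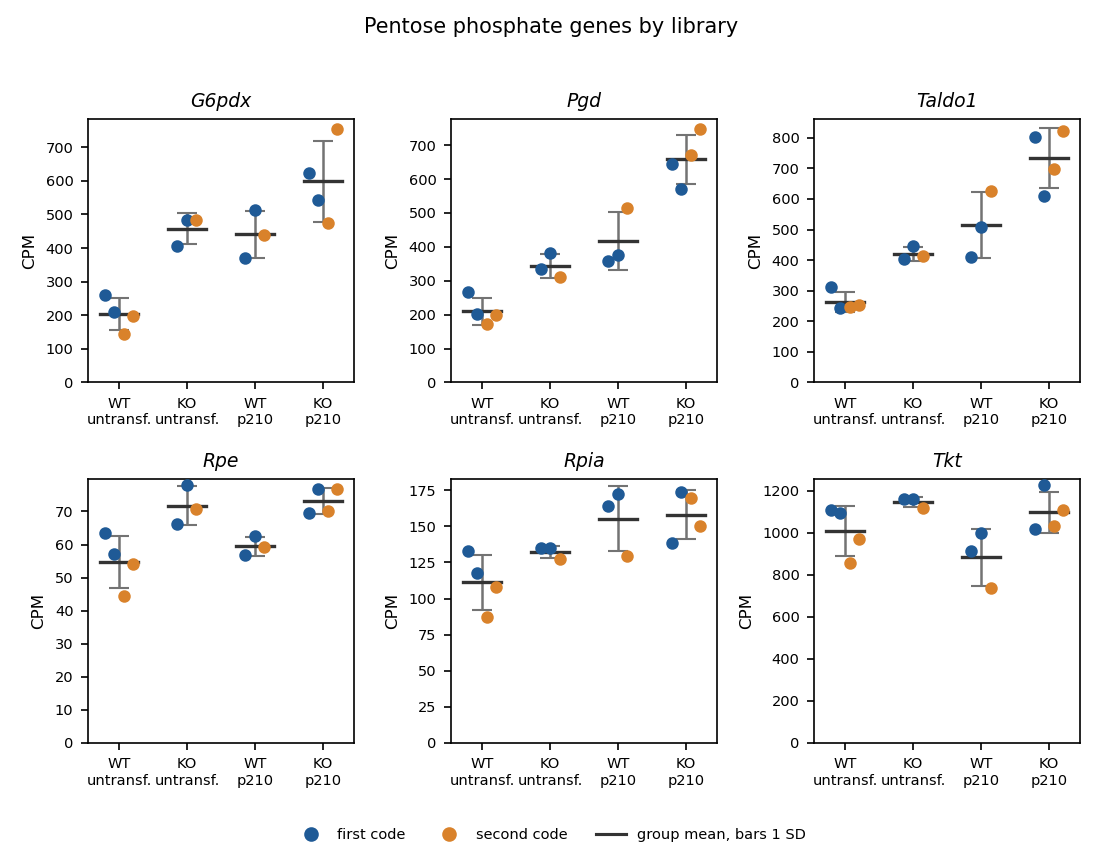
CPM (vertical axis, from 0) of 6 pentose phosphate genes in each library of the 4 groups (horizontal axis), with group means and 1 SD, coloured by the code in the descriptions. G6pdx, Pgd and Taldo1 stood higher in KO than in WT untransformed libraries, and Pgd and Taldo1 but not G6pdx stood higher in KO p210 than in KO untransformed libraries without overlap, whereas Tkt ranged from 736 to 1229.6 CPM over all libraries.

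Beside these differences other programmes moved between KO and WT untransformed lines. The summed CPM of 16 neutrophil and monocyte genes ranged from 23756 to 32871 in KO and from 545 to 10829 in WT untransformed libraries, with 2 of 16 called higher. The sum of 8 proliferation genes ranged from 2150 to 2440 in KO and from 3133 to 3461 in WT, with 8 of 8 called lower. Megakaryocyte genes summed to 982 to 1606 CPM in KO and 2300.2 to 5967 CPM in WT (4 of 6 called lower), and erythroid genes to 21.2 to 57.6 CPM in KO and 177 to 389.9 CPM in WT (1 of 6 called lower). Mast cell and basophil genes, which overlapped between those groups, summed to 4319 to 14132 CPM in WT p210. In KO lines they summed to 2801 to 3088 CPM before and 7324 to 10983 CPM with p210. Of these 7 genes, 3 were called higher and 2 lower with p210 in WT lines, and 3 higher and 0 lower in KO lines. Their median log2 fold change with p210 was -0.71 in WT and 1.63 in KO lines. Erythroid genes summed to 0.553 to 7.16 CPM in KO p210 libraries. With p210 in WT lines 7 of 8 proliferation genes fell while the neutrophil and monocyte sum ranged from 2192 to 7758. The part of these programmes in the results on the 38 genes was not tested, and in bulk RNA fewer cells of a type and less RNA per cell cannot be told apart. Of 6 other genes of this pathway that were tested, 1 was called higher in KO untransformed lines, Idnk, the gluconokinase (log2 fold change 0.51 ± 0.12 SE, adjusted p = 0.0176). With p210 in WT lines the transketolase-like gene Tktl1 rose from between 0 and 0.0549 to between 0.638 and 1.17 CPM (adjusted p = 0.000305). The 2 genes that fell there were Prps1 and Prps2, the synthetases that use ribose 5-phosphate for nucleotides, named after their values were seen. They went from between 77.7 and 83.7 to between 39.8 and 59.8 CPM and from between 117 and 123 to between 69.1 and 92.6 CPM, with log2 fold changes of -0.62 ± 0.14 (SE, adjusted p = 0.0036) and -0.51 ± 0.13 (SE, adjusted p = 0.0103). In KO lines both fell too, as did Idnk.

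Pfkp (chr13:6579768-6648777), the platelet-type phosphofructokinase, commits glucose carbon to glycolysis together with Pfkl and Pfkm. It stood at 143, 116, 57.3 and 82.7 CPM in WT untransformed and 161, 145 and 124 CPM in KO untransformed libraries, where 1 WT library lay within the KO range. In p210 lines it stood at 136, 106 and 92.2 CPM in WT and 107, 157, 127 and 119 CPM in KO, and these too overlapped. The log2 fold changes of KO against WT were 0.53 ± 0.26 (SE, adjusted p = 0.182) and 0.19 ± 0.26 (SE, adjusted p = 0.743), and those of p210 0.16 ± 0.26 (SE, adjusted p = 0.648) in WT and -0.17 ± 0.26 (SE, adjusted p = 0.639) in KO. Within codes the KO difference before transformation was 0.24 and 0.80, and the p210 difference in WT changed sign, at -0.10 and 0.37.

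Pkm (chr9:59656368-59679375), the pyruvate kinase of progenitor and most other cells, was among the most abundant members, at 999 TPM over all libraries. It stood at 1539.7, 1450.4, 902 and 1186 CPM in WT untransformed and 1954, 1593 and 1554 CPM in KO untransformed libraries, so that each KO library was above each WT library, but the log2 fold change of 0.42 ± 0.16 (SE, adjusted p = 0.093) did not pass the test. In p210 libraries it stood at 1603, 1419 and 1475 CPM in WT and 1793, 1656, 1482 and 1487 CPM in KO. These overlapped, with log2 fold changes of 0.10 ± 0.16 (SE, adjusted p = 0.795) for KO, 0.24 ± 0.16 (SE, adjusted p = 0.257) for p210 in WT and -0.08 ± 0.16 (SE, adjusted p = 0.717) for p210 in KO. Counts per gene do not tell its M1 and M2 splice forms apart, and 23.7% of the 50-base windows of its coding transcripts also occur in other genes.

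**Figure D3:**
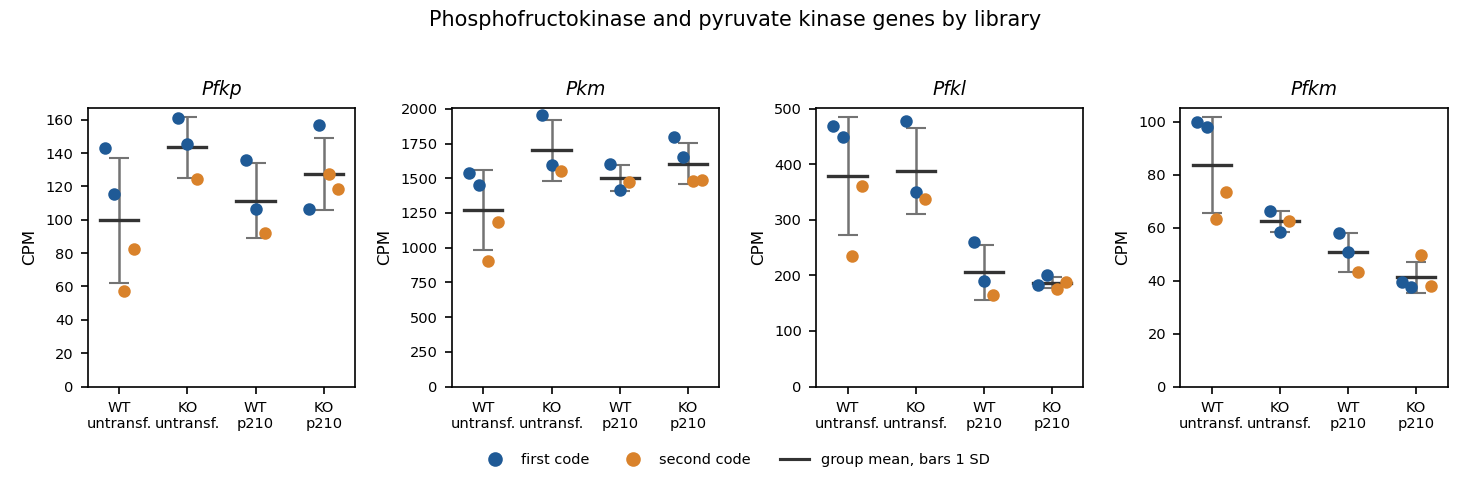
CPM of Pfkp, Pkm, Pfkl and Pfkm (vertical axes, from 0) in each library of the 4 groups, with group means and 1 SD, coloured by code. Pfkl and Pfkm are lower in p210 libraries, while Pfkp and Pkm overlap between p210 and untransformed libraries of each genotype.

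The other phosphofructokinases fell with p210. Pfkl, the liver type, went from 468, 449.8, 235 and 361 to 261, 190.1 and 165 CPM in WT lines, where only WT untransformed replicate 3 lay within the p210 range, a log2 fold change of -0.88 ± 0.23 (SE, adjusted p = 0.00962). In KO lines it went from 477, 349.9 and 337 to 183, 199.8, 176 and 187 CPM with no overlap (log2 fold change -1.06 ± 0.22 SE, adjusted p = 0.00342). Pfkm, the muscle type, fell from between 63.4 and 99.9 to between 43.4 and 58.0 CPM in WT and from between 58.5 and 66.3 to between 37.7 and 49.6 CPM in KO lines (log2 fold change -0.72 ± 0.17 SE, adjusted p = 0.00525 and -0.60 ± 0.16 (SE, adjusted p = 0.0132)). Pfkp took up a different share of the phosphofructokinase transcripts in each group. In deposited TPM, Pfkp made up 12.8, 10.9, 9.72 and 10.04% of the summed phosphofructokinase transcripts in WT untransformed, 15.4, 17.7 and 15.6% in KO untransformed, 19.8, 19.9 and 19.95% in WT p210 and 21.8, 28.1, 23.9 and 23.6% in KO p210 libraries. The groups did not overlap in any of the 4 comparisons, and the share was higher with KO by 5.37 and 4.50 percentage points and with p210 by 9.01 and 8.15. Each comparison reached the smallest two-sided p that an exact permutation test of 4 against 3 libraries allows, 0.0571 (0.152 after Benjamini-Hochberg adjustment over the 48 share comparisons), so none could pass 0.05. Without the library labelled KO p210 replicate 2 the KO difference in p210 lines was 3.24 points.

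Shares of other isozymes were less ordered. Hk3, the hexokinase of myeloid cells, held 61.7 to 68.1% of hexokinase TPM in KO untransformed libraries and 45.5, 41.4, 2.18 and 26.0% in WT untransformed libraries, and its own CPM (407, 395, 10.8 and 172 in WT and 601, 689 and 675 in KO) did not pass the test (log2 fold change 1.41 ± 1.02 SE, adjusted p = 0.366). The sum of neutrophil and monocyte genes ranged from 545 to 10829 CPM in WT untransformed, 23756 to 32871 CPM in KO untransformed, 2192 to 7758 CPM in WT p210 and 7379 to 24175 CPM in KO p210 libraries, and its part in the Hk3 share was not tested. In p210 libraries the Hk3 share ranged from 23.4 to 63.1% in WT and from 13.9 to 74.7% in KO. The share of Slc2a1 in the TPM of both glucose transporters was 21.8 to 49.0% in WT and 54.1 to 64.9% in KO untransformed libraries, without overlap (exact permutation p = 0.0571, adjusted 0.152).

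**Figure D4:**
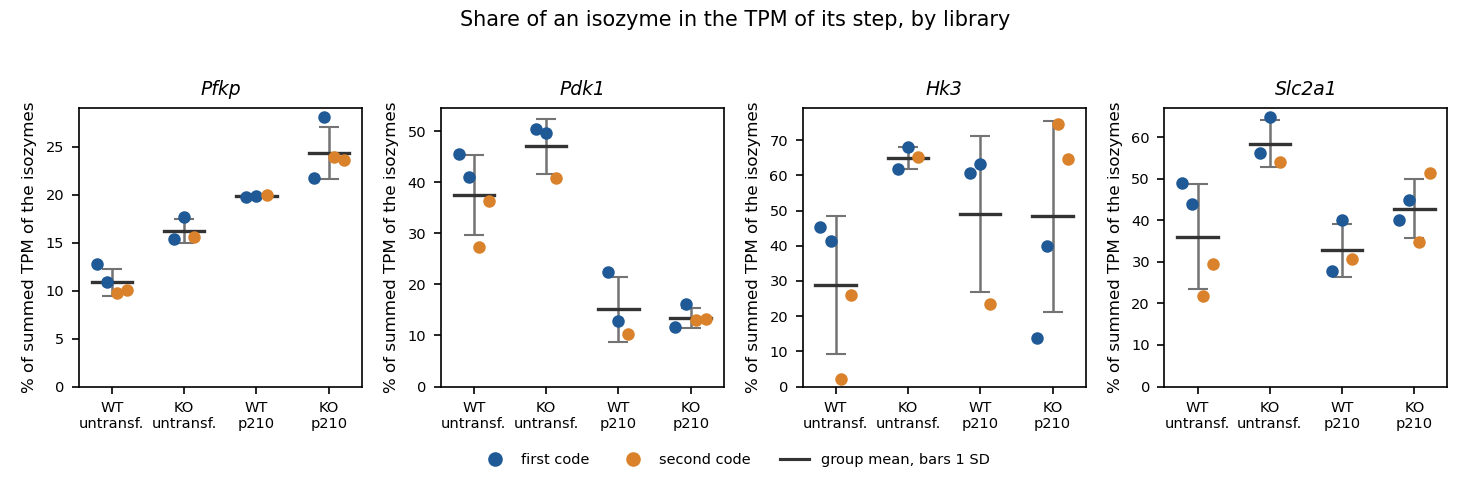
Share of Pfkp in phosphofructokinase, Pdk1 in Pdk1 and Pdk3, Hk3 in hexokinase and Slc2a1 in glucose transporter TPM (vertical axes, percent, from 0) in each library, with group means and 1 SD, coloured by code. The Pfkp share steps up from WT untransformed to KO p210 without overlap, and the Pdk1 share drops with p210.

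At the entry of glycolysis, Slc2a3, the high-affinity glucose transporter GLUT3, and Hk1, the ubiquitous hexokinase, were the members called lower in KO untransformed lines. Slc2a3 (chr6:122727809-122801640) stood at 206, 216, 369 and 247 CPM in WT and 147, 89.5 and 111 CPM in KO untransformed libraries, with no overlap (log2 fold change -1.17 ± 0.32 SE, adjusted p = 0.0327). It was higher in p210 libraries, at 633, 373 and 413 CPM in WT and 462, 340.0, 322 and 182 CPM in KO, and each p210 library exceeded every untransformed library of its genotype. The p210 log2 fold changes were 0.87 ± 0.31 (SE, adjusted p = 0.0425) in WT and 1.497 ± 0.32 (SE, adjusted p = 0.00414) in KO. With the replicate number as a block over all libraries, the WT difference was 0.69 and not called (adjusted p = 0.0898). It was not called either without WT untransformed replicates 1, 2 or 4, KO untransformed replicates 1, 2 or 3, WT p210 replicates 1 or 3 or KO p210 replicates 2 or 3 (log2 fold changes 0.58 to 0.94, adjusted p = 0.0516 to 0.196). It was 1.24 within the first code and 0.40 within the second. The KO difference before transformation was -0.85 and -1.51 within codes and was not called without WT untransformed replicates 3 or 4 or KO untransformed replicates 1, 2 or 3 (log2 fold changes -1.41 to -0.98, adjusted p = 0.0578 to 0.145).

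Hk1 differed with genotype and with p210. Its values were 802, 834, 920.5 and 906 CPM in WT untransformed, 638, 549 and 653 CPM in KO untransformed, 534, 593 and 609 CPM in WT p210 and 483, 485, 500.5 and 545 CPM in KO p210 libraries. WT untransformed libraries stood above all others, the log2 fold change with KO was -0.50 ± 0.09 (SE, adjusted p = 0.00703), and within codes it was -0.47 and -0.52. With p210 Hk1 fell by 0.58 ± 0.09 in WT (SE, adjusted p = 0.000324) and by 0.28 ± 0.08 in KO lines (SE, adjusted p = 0.0195) on the log2 scale. The p210 difference in KO lines was not called without KO untransformed replicates 1 or 3 (log2 fold changes -0.25 to -0.23, adjusted p = 0.0897 to 0.101), nor with a block for the assumed lines (adjusted p = 0.0549). Slc2a1 (GLUT1), Hk2 and Hk3 were called in no comparison. Slc2a1 stood at 49.6 to 96.02 CPM in WT untransformed and 88.2 to 121 CPM in WT p210 libraries and was higher with p210 in 6 of 6 such assumed lines, though not by the test (log2 fold change 0.65 ± 0.27 SE, adjusted p = 0.074 in WT).

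In the later steps of glycolysis most genes did not pass in any comparison, among them Gpi1, Aldoa, Aldoc, Pgk1, Pgam1 and Eno1, which encode the isomerase, aldolases, phosphoglycerate kinase and mutase, and enolase. Aldoa, at 1165 TPM over all libraries, was the most abundant member, and its log2 fold change of 0.57 ± 0.21 (SE, adjusted p = 0.0802) between KO and WT untransformed lines did not pass. Tpi1, triosephosphate isomerase, fell with p210 in KO lines, from 752, 604 and 559 to 347, 452, 321 and 346 CPM without overlap (log2 fold change -0.80 ± 0.25 SE, adjusted p = 0.0262). The Tpi1 call was lost without KO untransformed replicates 1 or 2 or KO p210 replicates 1, 3 or 4 (log2 fold changes -0.84 to -0.66, adjusted p = 0.0512 to 0.105). Gapdh (chr6:125161715-125166467), the dehydrogenase of the pathway, rose with p210 in both genotypes. It stood at 8.85, 8.36, 6.1 and 6.22 CPM in WT untransformed and 24.9, 35.8 and 23.9 CPM in WT p210 libraries (log2 fold change 1.93 ± 0.18 SE, adjusted p = 2.47e-05), and at 10.1, 8.78 and 9.55 and 40.3, 30.1, 30.7 and 29.4 CPM in the KO groups (log2 fold change 1.78 ± 0.19 SE, adjusted p = 6.19e-05). All p210 libraries were above all untransformed libraries, and the WT difference was 1.81 and 1.93 within codes. The level of Gapdh, 15.1 TPM over all libraries against 602 TPM of Tpi1, is that of the reads that could be placed: 58.4% of the 50-base windows of its coding transcripts also occur in other genes, 218 over all its transcripts, and the file headers give no option for counting reads with several positions. The same share was 68.0% for Pgk1, 49.5% for Eno1 and 41.5% for Pgam1, so their levels are uncertain too, and the part of shared windows in the Gapdh difference was not tested.

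Lactate dehydrogenase makes lactate from pyruvate, with Ldha as the form of glycolytic cells and Ldhb as the form of cells that burn lactate. Ldha was abundant throughout and fell with p210 in WT lines, from 1291, 1206, 1191 and 1221 to 1119.8, 854 and 684 CPM without overlap (log2 fold change -0.47 ± 0.16 SE, adjusted p = 0.0345). The Ldha call was lost without WT untransformed replicates 1 or 4 or WT p210 replicates 2 or 3 (log2 fold changes -0.49 to -0.33, adjusted p = 0.0558 to 0.123). In KO lines it went from between 977 and 1230.5 to between 722 and 993 CPM (log2 fold change -0.37 ± 0.16 SE, adjusted p = 0.0855). Ldhb (chr6:142490249-142507957) was low and fell further. It stood at 6.33, 8.7, 7.72 and 4.24 CPM in WT untransformed, 5.5, 5.53 and 3.07 CPM in KO untransformed, 0.502, 2.59 and 1.62 CPM in WT p210 and 0, 0, 0 and 0.117 CPM in KO p210 libraries. KO p210 libraries thus held 3 counts in all, against 125 in WT p210 and 418 in KO untransformed libraries. The WT p210 level was 53.8 times that of KO p210 (95% exact interval 18.0 to 265, counting error only), and the KO untransformed level 149 times (50.5 to 724). Both differences were called (adjusted p = 0.00573 and 0.000154), and the first remained called without the library labelled KO p210 replicate 2 (adjusted p = 0.0223). In WT lines the log2 fold change of Ldhb with p210 was -2.10 ± 0.68 (SE, adjusted p = 0.0286), which was not called with the replicate block (adjusted p = 0.0504) nor without WT untransformed replicate 2 or WT p210 replicates 1 or 3 (log2 fold changes -2.15 to -1.69, adjusted p = 0.0576 to 0.0768). Ldha nonetheless made up 98.5 to 99.3% of lactate dehydrogenase TPM even in WT untransformed libraries.

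Of the lactate transporters, Slc16a1 (MCT1) fell with p210 in KO lines, from 161, 163 and 186 to 92.7, 122, 70.1 and 60.3 CPM (log2 fold change -0.98 ± 0.33 SE, adjusted p = 0.0375). In WT lines it went from 187, 166, 142 and 171 to 133, 100.2 and 38.1 CPM without overlap but did not pass (log2 fold change -0.88 ± 0.34 SE, adjusted p = 0.0599). The difference in KO lines was not called without KO untransformed replicates 1, 2 or 3 or KO p210 replicates 1, 3 or 4 (log2 fold changes -1.01 to -0.84, adjusted p = 0.0589 to 0.104). Slc16a3 (MCT4), a lactate exporter, passed in no comparison. Its libraries of the second code stood at 47.7 to 70.8 CPM and those of the first code at 119 to 167 CPM, without overlap over all groups.

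The pyruvate dehydrogenase kinases switch off the entry of pyruvate into the mitochondria. Pdk1 (chr2:71873224-71903858), a HIF1 target, fell with p210 from 227, 208, 128 and 187 to 110.0, 68.0 and 43.5 CPM in WT and from 245, 218 and 196 to 61.4, 89.8, 69.4 and 73.2 CPM in KO lines. Every p210 library lay below every untransformed library, and the log2 fold changes were -1.34 ± 0.28 (SE, adjusted p = 0.00303) and -1.58 ± 0.27 (SE, adjusted p = 0.00104). Pdk3 (chrX:93764607-93832201) moved the other way, from 89.1, 98.4, 112 and 108 to 126, 151 and 126 CPM in WT and from 78.9, 72.5 and 93.3 to 154, 152, 152 and 159 CPM in KO lines, with log2 fold changes of 0.40 ± 0.10 (SE, adjusted p = 0.00936) and 0.92 ± 0.10 (SE, adjusted p = 8.67e-05). Pdk1 made up 27.3 to 45.6% of the TPM of both kinases in WT untransformed and 10.2 to 22.4% in WT p210 libraries, and 40.9 to 50.5% and 11.6 to 16.2% in the KO groups (exact permutation p = 0.0571 each, adjusted 0.152). Their summed TPM was 237 ± 8.76 TPM in WT untransformed and 207 ± 22.8 TPM in WT p210 libraries (SD, n = 4 and 3). Within codes the Pdk1 difference in WT was -1.30 and -1.88, both called (adjusted p = 0.0212 and 0.0391), and that of Pdk3 0.55 and 0.16, the second not called (adjusted p = 0.371). The Pdk3 difference in WT lines was also not called without WT p210 replicate 2 (log2 fold change 0.30, adjusted p = 0.0505). Neither kinase was called between KO and WT.

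**Figure D5:**
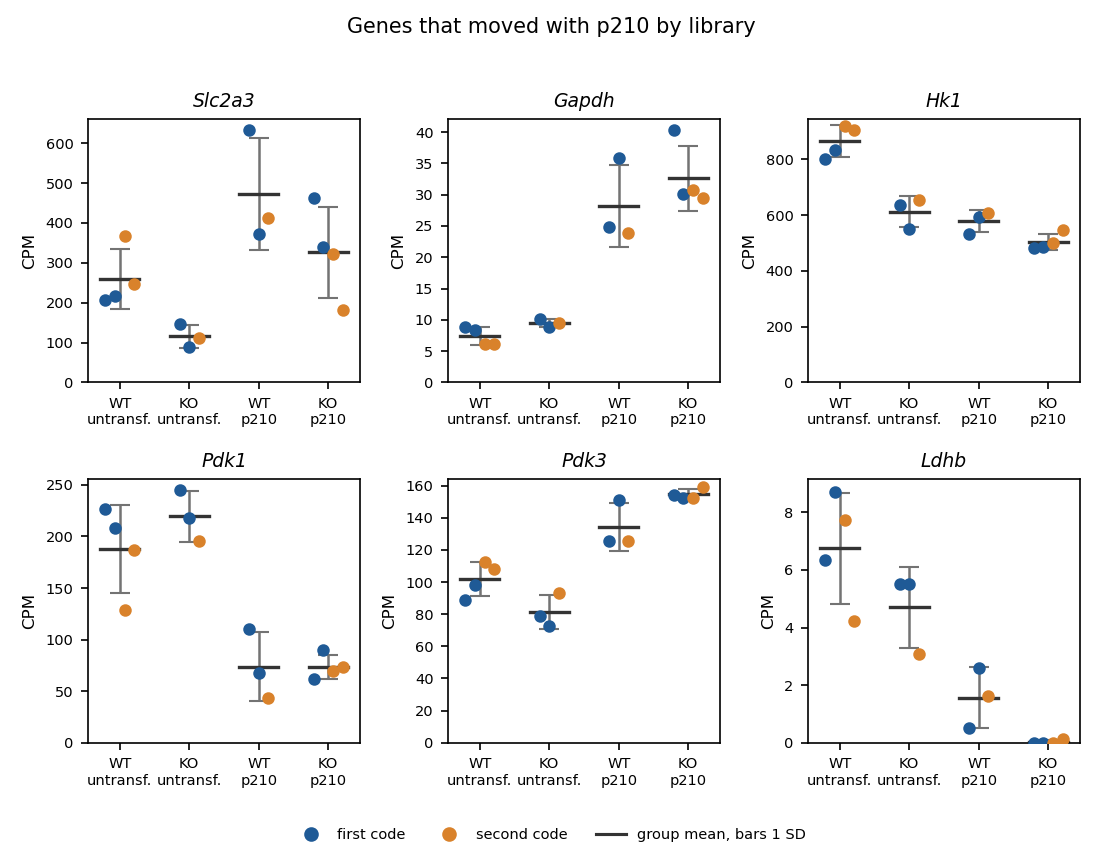
CPM (vertical axes, from 0) of 6 genes called with p210 in both genotypes, in each library of the 4 groups, with group means and 1 SD, coloured by code. Slc2a3, Gapdh and Pdk3 are higher and Hk1, Pdk1 and Ldhb lower in p210 than in untransformed libraries of a genotype.

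Pfkfb3 and Pfkfb4 set fructose 2,6-bisphosphate. Pfkfb3 stood at 99.2, 87.0, 50.0 and 77.0 CPM in WT untransformed and 130.3, 134 and 131 CPM in KO untransformed libraries, without overlap (log2 fold change 0.75 ± 0.23 SE, adjusted p = 0.0468), and at 127, 180.2 and 95.8 CPM in WT p210 libraries (log2 fold change 0.78 ± 0.23 SE, adjusted p = 0.0183). The KO difference was called in 10 of 26 alternative analyses. It was not called without WT untransformed replicates 2, 3 or 4, KO untransformed replicates 1, 2 or 3, WT p210 replicate 1 or KO p210 replicates 2, 3 or 4 (log2 fold changes 0.56 to 0.78, adjusted p = 0.0501 to 0.153). The p210 difference was not called without WT p210 replicate 2 (log2 fold change 0.51, adjusted p = 0.103). Pfkfb4 stood at 16.3, 11.3, 6.75 and 10.2 CPM in WT and 24.7, 27.6 and 16.1 CPM in KO untransformed libraries, overlapping at 1 library each (log2 fold change 1.03 ± 0.29 SE, adjusted p = 0.0356). The Pfkfb4 call was lost without WT untransformed replicates 2, 3 or 4 or KO untransformed replicates 1 or 2 (log2 fold changes 0.83 to 1.01, adjusted p = 0.067 to 0.162). Tigar, which breaks down the same metabolite and was named after its values were seen, stood at 16.4, 12.9, 6.34 and 9.36 CPM in WT and 23.3, 26.5 and 24.2 CPM in KO untransformed libraries and was called higher (log2 fold change 1.13 ± 0.27 SE, adjusted p = 0.0196). Fbp1, the gluconeogenic bisphosphatase, held 5 counts over the WT and 28 over the KO untransformed libraries, and 3 and 14 with p210, and was not tested.

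Of the hypoxia genes, Hif1a and Vegfa rose with p210 in WT lines. Hif1a, the oxygen-regulated subunit, went from 156, 153, 126 and 138 to 153, 269 and 186 CPM with WT p210 replicate 1 inside the untransformed range (log2 fold change 0.50 ± 0.17 SE, adjusted p = 0.0354). That call held in 13 of 27 alternative analyses. Hif1a was not called without WT untransformed replicates 2, 3 or 4, KO untransformed replicate 3 or WT p210 replicates 2 or 3 (log2 fold changes 0.24 to 0.54, adjusted p = 0.051 to 0.212). In KO lines Hif1a went from between 177 and 220.5 to between 215 and 287 CPM (log2 fold change 0.37 ± 0.17 SE, adjusted p = 0.11). Vegfa, the angiogenic factor, went from 60.2, 59.1, 33.9 and 35.1 to 121, 89.3 and 69.2 CPM in WT lines, without overlap (log2 fold change 0.99 ± 0.28 SE, adjusted p = 0.0146, not called without WT p210 replicate 1 (log2 fold change 0.74, adjusted p = 0.0685)), and overlapped in KO lines (log2 fold change 0.29 ± 0.28 SE, adjusted p = 0.447). Bnip3, a mitophagy receptor, and Egln3, an oxygen-sensing hydroxylase, were called in no comparison, and Bnip3 stood at 16.6 to 58.3 CPM in WT untransformed and 15.5 to 36.6 CPM in KO p210 libraries. Of 27 other hypoxia genes tested, 0 were called between KO and WT untransformed lines by edgeR, where 15.2% of all genes tested were called. At an unadjusted p under 0.05 there were 3, beside 4722 of all 14512 genes tested. Between KO and WT p210 lines 1 was called, Vldlr, which was lower in KO, where 4.44% of all genes tested were called. With p210 5 of these 27 rose and 3 fell in WT and 4 rose and 6 fell in KO lines, where 39.5% and 37.2% of all genes tested were called. Ddit4, a stress-induced inhibitor of mTORC1, rose from between 15.2 and 19.9 to between 57.7 and 178 CPM in WT lines (log2 fold change 2.85 ± 0.33 SE, adjusted p = 8.37e-05) and by 2.43 ± 0.35 (SE, adjusted p = 0.000368) in KO lines. Vldlr, the very low density lipoprotein receptor, fell from between 79.1 and 116 to between 1.22 and 10.6 CPM in WT lines (log2 fold change -4.07 ± 0.59 SE, adjusted p = 0.000326) and from between 25.6 and 51.1 to between 0.627 and 1.72 CPM in KO lines (log2 fold change -5.10 ± 0.58 SE, adjusted p = 9.48e-05).

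Among 37 other glycolysis and pyruvate genes tested, 5 were higher and 1 lower in KO untransformed lines, 7 higher and 5 lower with p210 in WT, and 6 higher and 8 lower with p210 in KO lines, where 15.2%, 39.5% and 37.2% of all genes tested were called. Mlx, the partner of the glucose-sensing factors MondoA and ChREBP, stood at 42.7 to 56.8 CPM in KO and 26.8 to 39.4 CPM in WT untransformed libraries (log2 fold change 0.61 ± 0.13 SE, adjusted p = 0.0138). Txnip, an inhibitor of glucose uptake, fell with p210 in KO lines from between 1212 and 1344 to between 448 and 676 CPM (log2 fold change -1.19 ± 0.19 SE, adjusted p = 0.000611). Pgm2, a phosphoglucomutase, fell with p210 in WT lines from between 62.5 and 67.6 to between 48.6 and 48.9 CPM (log2 fold change -0.42 ± 0.06 SE, adjusted p = 0.000324). Gpd2, the mitochondrial glycerol phosphate dehydrogenase, was lower in KO untransformed lines, at 88.7 to 101 against 115 to 139 CPM in WT (log2 fold change -0.40 ± 0.07 SE, adjusted p = 0.00861), and rose with p210 in KO lines (log2 fold change 0.45 ± 0.07 SE, adjusted p = 0.000827). Eno1b, a near copy of Eno1, stood at 16.3, 11.1 and 7.11 CPM in KO untransformed and 13.2, 15.7, 0.116 and 15.6 CPM in KO p210 libraries, and at no more than 0.22 CPM in any WT library, so that KO p210 replicate 3 alone among the KO libraries stood in the WT range. It was called higher in KO in both states (adjusted p = 0.00764 and 0.022), and reads of such copies cannot be assigned with certainty. Counts of Eno1 and Eno1b summed gave a log2 fold change of 0.013 between KO and WT untransformed lines, against -0.07 ± 0.23 (SE) for Eno1 alone.

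The differences called with p210 kept their sign within both codes, which are parts of the same libraries that gave the calls and so no separate support. In WT lines the log2 fold changes within the first and second code were 0.90 and 1.32 for G6pdx, 0.64 and 1.45 for Pgd, -0.55 and -0.61 for Hk1, -1.03 and -0.88 for Pfkl, -0.87 and -0.68 for Pfkm, -0.35 and -0.84 for Ldha, and 0.81 and 0.98 for Vegfa. In KO lines they were 1.76 and 1.18 for Slc2a3, 1.90 and 1.65 for Gapdh, -1.62 and -1.46 for Pdk1, 1.02 and 0.74 for Pdk3, -0.76 and -0.75 for Tpi1, and -0.59 and -1.51 for Slc16a1. The second code alone held 1 library in the WT p210 and KO untransformed groups, so calls within it are no measure of a difference between genotypes. With a block for these assumed lines, the WT differences of Ldha (-0.50, adjusted p = 0.0638) and Hif1a (0.45, adjusted p = 0.0855) were not called, nor were those of Slc2a3 and Ldhb. In KO lines that block ended the calls of Hk1 (-0.28, adjusted p = 0.0549) and Slc16a1 (-0.94, adjusted p = 0.0926).

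Libraries within a group also differed along the whole gene set. WT untransformed replicate 1 was the highest of its 4 libraries for 29 of 37 members and replicate 3 the lowest for 31, with a median log2 deviation from the group mean of -0.46. WT p210 replicate 3 was the lowest of its 3 libraries for 26 members and KO untransformed replicate 3 for 20. These 3 lowest libraries carry the second code. The KO p210 group did not follow: replicate 1, of the first code, was the lowest for 14 members. Replicates 3 and 4 of that group, of the second code, were the lowest for 12 and 6. The lowest sum of neutrophil and monocyte genes in any library, 545 CPM, was also that of WT untransformed replicate 3. The same library had the highest mast cell and basophil sum (5967 CPM) and megakaryocyte sum (5967 CPM) of its group, and the mast cell protease gene Cma1 stood at 777 CPM there, against at most 11.7 CPM in the other 3. Without WT untransformed replicate 3 the number of members called between KO and WT untransformed lines fell from 8 to 5. Over all genes tested the calls fell from 2211 (15.2%) to 1195 (8.33%).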

How the data were processed

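Whole-transcriptome counts of 14 libraries in 4 groups were used. Per the file headers, the authors made the deposited count tables with featureCounts v1.5.1, with reverse-strand counting against the GENCODE M13 annotation of GRCm38. The submitters' processing notes name STAR and Trimmomatic as well, with versions not given in the sources used here. TPM values deposited by the authors beside the counts were recomputed from counts and lengths and differed by at most 0.049. Symbols were found for 50376 of 50686 gene IDs. The members and lists were chosen with earlier results of these data known.

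Counts were tested in edgeR 4.0.16 (R 4.3.3) with TMM scaling, filterByExpr (minimum count 10, total 15; 14512 genes kept) and 1 robust quasi-likelihood fit over 4 groups with 5 contrasts. All p-values were adjusted by Benjamini and Hochberg over all genes tested. Total counts of 20270348 to 50303271 set the precision, and 3 counts over a group correspond to 0.0198 to 0.0369 CPM. Intervals cover counting error only. Isozyme shares came from deposited TPM and were compared by two-sided exact permutation tests over libraries. Simulated counts with known changes were run through the same test, with 97 to 99 genes changed at each size. It recovered 3.06 to 8.16% of log2 changes of 0.5 and 39.2 to 53.1% of log2 changes of 1. Of its calls 2.27 to 6.52% were false. Fewer genes were changed in the simulation than were called in the data, so recovery in the data may differ. A gene not called is not thereby shown to be unchanged. Promoter windows and shared 50-base windows were scanned on RefSeq GRCm38.p6 and GENCODE M21 sequences. Python steps used numpy 2.4.6, scipy 1.17.1 and pandas 2.3.3.

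Values by library are given for Pfkp, Pkm, Cdk6 and every member past the threshold in at least 1 contrast, and for at most 4 other pathway genes per contrast, those with the smallest adjusted p. Any gene outside this rule is said to be so. Deviations of same-numbered WT libraries of both states correlated at 0.114 to 0.163 (3 of 3 pairs). Libraries of different numbers reached 0.265 (WT untransformed replicate 1 with KO untransformed replicate 2), so a pairing by number is not established. The blocked value, from 1 replicate factor over all 14 libraries, stands beside each WT result whose call it changes. In that fit Slc2a3 and Ldhb lost their calls. Alternatives were other scalings, no filter, DESeq2 1.42.0, limma-voom (limma 3.58.1), only the 2 groups compared, each library left out, each code alone, code as a term, and blocks. Protein sequences were not used here.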

Additional observations from a re-analysis of the deposited data

Results flagged for a closer look

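Each member's CPM was checked in the groups of 4 libraries, 74 checks in all, for a library whose distance to its nearest neighbour took up nearly the whole range of the group. Chance alone flags about 1 in 20 such groups, and 4 were found. Pfkm stood at 49.6 CPM in KO p210 replicate 3, where the other KO p210 libraries lay between 37.7 and 39.4 CPM. Gapdh stood at 40.3 CPM in KO p210 replicate 1, against 29.4 to 30.7 CPM in the others. Ldhb stood at 0.117 CPM in KO p210 replicate 4 and was at 0 in the other 3 libraries of that group. Taldo1 stood at 312.9 CPM in WT untransformed replicate 1, against 245 to 252 CPM in the others, and this highest WT library still lay below every KO untransformed library.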

How the results depend on the processing

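Between KO and WT untransformed lines the number of members called, 8, was 5 with no filter, 4 without both WT untransformed replicate 3 and KO p210 replicate 2, 1 within the first code and 0 within the second. It was 2 to 10 when 1 library was left out. Over all genes 2211 were called, 1273 with no filter, 3499 with DESeq2, 3399 from the 2 groups alone, 920 without both libraries, and 435 and 0 within the codes. The range was 181 to 2643 with 1 library left out. Between KO and WT p210 lines the 2 members were 1 with library size scaling, code as a term or a replicate block and without both libraries, 0 from the 2 groups alone and within the second code, and 1 to 3 with 1 library left out. Over all genes 645 were called, 1454 with DESeq2, 386 with limma-voom, 5 from the 2 groups alone, 275 without both libraries, 4 within the second code, 366 with the replicate block and 285 to 736 with 1 library left out, lowest without WT p210 replicate 1. With p210 in WT lines 16 members became 7 within the second code and 11 to 16 with 1 library left out. The 5727 genes became 3725 and 1566 within the codes and 4668 to 5854. With p210 in KO lines 12 members became 0 within the second code and 9 to 15 with 1 library left out, 15 of them without KO p210 replicate 2. The 5395 genes became 73 within the second code, 3586 with a block for the assumed lines and 3969 to 5742. The interaction called 5 genes, 3 with library size scaling, 413 with DESeq2, 32 within the first code, 0 without both libraries, within the second code, with code as a term or with the replicate block, and 0 to 46 with 1 library left out. Its 0 members became 2 with DESeq2 and 0 to 1.

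Directions turned for values that passed no test. The Pkm difference of KO in p210 lines was -0.0013 with library size scaling, and that of p210 in KO lines 0.032 without KO untransformed replicate 1 (lowest -0.14 with 1 library left out). The Pfkp difference of p210 in WT lines was -0.035 without WT untransformed replicate 3, -0.02 without WT p210 replicate 1, -0.026 without both libraries and -0.10 within the first code, with values up to 0.37 when 1 library was left out. The Eno1 difference between KO and WT untransformed lines was 0.013 with Eno1b added. With CPM in place of TPM the share differences became 1.02 points for Hk2 with p210 in WT, 0.664 for Hk3 with KO in p210 lines and -2.30 for Pfkl with KO in untransformed lines, and without KO p210 replicate 2 that of Hk3 was 2.05. The Pfkp share difference was 3.24 points for KO in p210 lines and 6.89 for p210 in KO lines without that library. The causes were not tested, apart from the smaller number of libraries in those settings that leave some out.

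Between the WT groups the correlations of same-numbered libraries were 0.114 to 0.163. Libraries of different numbers reached 0.265, so no pairing by replicate number is established. In the other comparisons correlations of same-numbered libraries lay between -0.153 and 0.119, and a replicate block gave 9 members between KO and WT untransformed lines and 14 with p210 in KO lines. In WT lines it called 16, of which 14 were also called without it. Members near the filter, such as Ldhb with 3 counts in all KO p210 libraries, are limited by depth.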
